A study of Homo sapiens with 18 samples.

Results

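Clone E1 is 1 of the 2 clones of the G401 line in which CRISPR/Cas9 editing disrupted both copies of RB1, and the comparison described here sets its 3 libraries treated with tazemetostat against its 3 libraries treated with DMSO. G401 is an established cell line from a malignant rhabdoid tumour. Treated cultures received 10 µM tazemetostat for 11 days and control cultures the same volume of the solvent, DMSO. These 6 libraries are part of a series of 18, in 6 groups of 3, in which the same treatment was given to the second RB1-null clone, F2, and to an isogenic RB1-intact control (WT) made by targeting AAVS1, a safe harbour locus. All lines carry the G401 background, and E1 is a single clone, so a property of that clone and an effect of losing RB1 cannot be told apart within it. The comparison covered the 15972 of 55765 listed genes whose mean over the 6 E1 libraries was at least 10 normalized counts. Of the remaining genes, 24804 had no read in E1 and 14989 had reads but a lower mean.

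Tazemetostat inhibits EZH2, the catalytic subunit of Polycomb repressive complex 2 (PRC2), which places methyl groups on lysine 27 of histone H3 and so helps to keep developmental and lineage genes silent. Malignant rhabdoid tumours lack SMARCB1, a core subunit of the SWI/SNF chromatin remodeller, which opposes Polycomb at many genes. RB1 holds E2F transcription factors in check and so restrains entry into S phase. Genes that lose Polycomb repression are typically low or silent beforehand, and the mark is lost gradually as cells divide without active PRC2.

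Recovered depth was 31947071 to 37481152 reads in the 6 E1 libraries. Between 22238 and 22890 genes had at least 1 read in the DMSO libraries and between 24556 and 25012 in the treated ones. The first principal component held 94.3% of the variance over the 15972 genes and separated treatment from solvent. The replicates are labelled as biological. In bulk RNA, a change in the share of cells that express a gene and a change in RNA per cell cannot be told apart.

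RB1 transcript remained detectable in E1, with 658, 505 and 780.3 normalized counts in DMSO and 939, 947 and 1045 with tazemetostat, against a mean of 2694 in WT DMSO. The 3 treated libraries lay above the 3 DMSO libraries (log2 change 0.61 ± 0.11 SE, adjusted p = 1.1e-04), a difference short of the log2 change of 1 that a call required. Small edits need not remove the transcript, so these reads do not test the loss of RB1 protein. EZH2 itself had 2944, 3011 and 3579 normalized counts in DMSO and 2916, 3023 and 3028 with tazemetostat, and the groups overlapped (log2 change -0.08 ± 0.07 SE, adjusted p = 0.34). SMARCB1 had 0 reads in all 6 libraries, which allows up to 3 reads each. Among markers of mesenchymal and rhabdoid cells, VIM (vimentin) was high in every library, at 44184 to 51451 normalized counts in DMSO and 62093 to 69993 with tazemetostat. CD44, the hyaluronan receptor, had 0 reads in each DMSO library and 147, 203 and 174 normalized counts with tazemetostat. CDH2 had 0 reads in all 6.

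A gene was called when its Benjamini-Hochberg adjusted p in limma was under 0.05 and its change was at least 1 on the log2(value + 1) scale. By this rule 1727 genes rose and 596 fell, which is 10.8% and 3.73% of the genes tested (14.5% in either direction). The median log2 change was 4.43 among rises and -1.30 among falls, against 0.02 over all 15972 genes. Rises were also larger: 707 genes rose by at least 5 on the log2 scale and 56 by at least 10, while 3 fell by at least 5. Rises started low. Of the 1727, 1024 (59.3%) had a DMSO mean under 10 normalized counts and so entered the test only through the treated libraries, 693 (40.1%) had 3 reads or fewer in every DMSO library, and 361 had no DMSO read. From that floor, 62 genes reached a treated mean of at least 1000. Falls ended at the floor in 6 genes. Among the 6676 genes with a DMSO mean of at least 1000, the balance was the other way, with 91 higher and 152 lower. That set was chosen by its DMSO level, which leaves out every rise from the floor, so part of this balance follows from the choice.

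Genes that rose took 1.33% to 1.44% of the reads of a DMSO library and 5.71% to 5.90% of a treated one. Genes that fell took 2.71% to 2.88% and then 0.946% to 0.963%. The treated and DMSO libraries did not overlap for 1723 of the 1727 rises and 589 of the 596 falls, where 26.7% of all tested genes lay wholly higher and 19.9% wholly lower without overlap. Names derived from genomic clones, mostly non-coding or unnamed transcripts, made up 145 (8.40%) of the rises and 151 (25.3%) of the falls, against 12.3% of the genes tested.

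**Figure D1:**
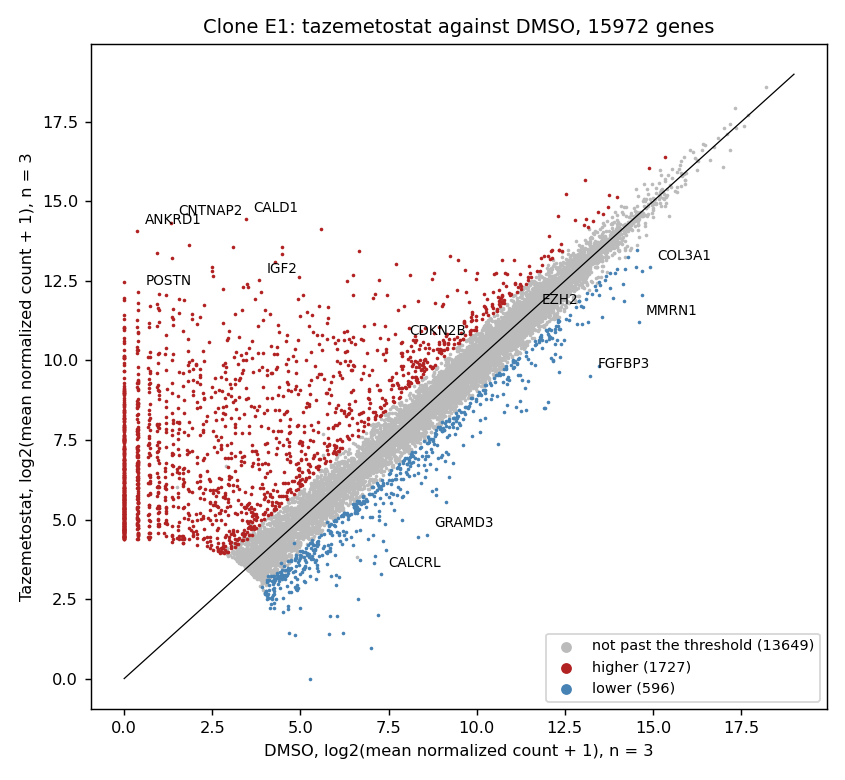
Mean level of each of the 15972 tested genes in clone E1, as log2(mean normalized count + 1) over 3 libraries, in DMSO (horizontal) and with tazemetostat (vertical). The 1727 genes that rose (red) extend up the left edge, where DMSO libraries had few or no reads, and the 596 that fell (blue) lie in a narrow band below the diagonal line of equal level.

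The 12 largest rises, among called genes with a mean of at least 50 and no overlap between groups, all had a DMSO mean under 10 normalized counts. ANKRD1, a muscle ankyrin repeat protein and a well-known target of the YAP/TEAD transcription factors, had 0.893, 0 and 0 normalized counts in DMSO and 16102, 18423 and 16555 with tazemetostat (log2 change 13.75 ± 0.45 SE, adjusted p = 6.0e-15). CNTNAP2, a neurexin-family adhesion protein of axons, had 3.57, 0.965 and 0 normalized counts in DMSO and 19536, 19997 and 22438 with tazemetostat (log2 change 13.28 ± 0.59 SE, adjusted p = 4.9e-13). ABLIM1, an actin-binding LIM protein, had 2.68, 0 and 0 normalized counts in DMSO and 10378, 10606 and 10920.0 with tazemetostat (log2 change 12.75 ± 0.36 SE, adjusted p = 6.3e-16). In each of these 3, the groups lay far apart and every DMSO library held fewer than 4 normalized counts.

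For 4 of the 12, no DMSO library held a read, so the fold is a lower bound against a floor of 3 reads per library. NRP2, a receptor for semaphorins and VEGF, reached 3917, 3868 and 4072 with tazemetostat, at least 1395-fold higher. ALPK2, an alpha-kinase, reached 6068, 5178 and 5736, at least 1998-fold higher. PDE4B, a phosphodiesterase that degrades cAMP, and CDC42EP3, an effector of the GTPase CDC42, reached 3519, 4157 and 3689.6 and 2643, 2808 and 2793, at least 1337-fold and 970.0-fold higher. The treated libraries of these genes lay close together, with SDs of 106, 449.6, 330.2 and 91.3 (n = 3).

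The other 5 had some reads in DMSO. POSTN (periostin), a matrix protein of remodelling tissue, had 0, 0 and 0.974 normalized counts in DMSO and 4109.7, 4515 and 5058 with tazemetostat (log2 change 11.82 ± 0.29 SE, adjusted p = 9.7e-17). TP63, a p53-family factor of basal epithelia, had 0, 0.965 and 0 normalized counts in DMSO and 3499, 3485 and 3843 with tazemetostat (log2 change 11.49 ± 0.30 SE, adjusted p = 1.9e-16). FAT2, an atypical cadherin, had 0.893, 3.86 and 2.92 normalized counts in DMSO and 14009, 11106 and 13005 with tazemetostat (log2 change 11.90 ± 0.29 SE, adjusted p = 8.0e-17). In these 3 the highest DMSO library held fewer than 4 normalized counts. TENM3, a teneurin that guides neuronal wiring, rose by 11.88 to 9305, 9201 and 10138. CALD1 (caldesmon), which regulates actomyosin in smooth muscle, was uneven in DMSO, at 16.1, 0 and 13.6, and even when treated, at 21471, 22189.7 and 23498 (log2 change 11.79 ± 0.81 SE, adjusted p = 4.0e-10).

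These 3 examples show how different the start regions of strongly rising genes can be, and the 250 bases before their RefSeq starts are given 5′ to 3′ on the gene's strand, in GRCh38.p14. In NRP2 and POSTN the capitals mark CG dinucleotides, of which there are 29 and 1, against a median of 11 over the 35116 promoters of the RefSeq table. In ANKRD1 the capitals mark CATTCC on either strand, the core of the motif bound by TEAD factors. It matches at 2 places there and at least once in 11.9% of all promoters of this length. MYPN, among the 12 largest falls, also had 2 matches, and NRP2 and POSTN, which rose, had 0. Whether TEAD factors bind at these matches was not tested. RefSeq promoters matched 68.4% of the tested genes, short of the 80% set for it, so a comparison of promoter composition between rises and falls is void and none was made.
NRP2, chr2:205682251-205682500, plus strand: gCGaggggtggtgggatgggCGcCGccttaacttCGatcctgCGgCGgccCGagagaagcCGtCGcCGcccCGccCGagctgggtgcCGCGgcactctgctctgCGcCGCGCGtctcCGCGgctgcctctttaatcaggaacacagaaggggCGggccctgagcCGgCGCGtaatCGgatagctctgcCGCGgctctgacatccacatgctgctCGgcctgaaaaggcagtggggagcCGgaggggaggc
POSTN, chr13:37598769-37599018, minus strand: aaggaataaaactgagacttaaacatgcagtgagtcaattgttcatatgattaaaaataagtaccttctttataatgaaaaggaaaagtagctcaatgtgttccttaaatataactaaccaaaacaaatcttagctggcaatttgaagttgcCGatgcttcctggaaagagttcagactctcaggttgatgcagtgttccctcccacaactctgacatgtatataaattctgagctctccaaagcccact
ANKRD1, chr10:90921088-90921337, minus strand: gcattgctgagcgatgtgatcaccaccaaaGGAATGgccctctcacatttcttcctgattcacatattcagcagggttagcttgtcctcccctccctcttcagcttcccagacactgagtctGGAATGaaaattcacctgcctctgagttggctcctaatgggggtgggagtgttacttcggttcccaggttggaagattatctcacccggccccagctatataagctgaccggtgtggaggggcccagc

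The 12 largest falls among called genes with a mean of at least 50 and no overlap between groups lay between -4.08 and -3.20 on the log2 scale. GRAMD3, a lipid-binding GRAM domain protein listed by RefSeq as GRAMD2B, had 355, 402 and 396 normalized counts in DMSO and 21.3, 17.4 and 27.3 with tazemetostat (log2 change -4.08 ± 0.25 SE, adjusted p = 8.1e-11). CALCRL, the receptor for calcitonin gene-related peptide and adrenomedullin, had 164, 115 and 188 normalized counts in DMSO and 5.32, 10.6 and 10.4 with tazemetostat (log2 change -4.03 ± 0.31 SE, adjusted p = 2.6e-09). ABCC2, an exporter of conjugated organic anions, had 305, 339 and 328 normalized counts in DMSO and 16.0, 29.0 and 17.9 with tazemetostat (log2 change -3.93 ± 0.25 SE, adjusted p = 1.3e-10). All treated libraries of these 3 genes lay below 30 normalized counts and all DMSO libraries above 110.

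Several falls began at a high level. MMRN1 (multimerin 1), a large secreted protein of platelets and endothelium, had 24528, 21974 and 27872 normalized counts in DMSO and 2097, 2528 and 2449.7 with tazemetostat (log2 change -3.39 ± 0.09 SE, adjusted p = 5.0e-16). SHISA3, an inhibitor of WNT and FGF receptor maturation, had 11148, 11189 and 11753 normalized counts in DMSO and 810.2, 870.4 and 1055 with tazemetostat (log2 change -3.65 ± 0.09 SE, adjusted p = 1.1e-16). FGFBP3, a carrier of fibroblast growth factors, had 9367, 9169.9 and 10009 normalized counts in DMSO and 633, 774 and 797 with tazemetostat (log2 change -3.70 ± 0.09 SE, adjusted p = 4.3e-17). Their treated means were 10.5-fold, 12.5-fold and 13.0-fold lower than their DMSO means, with wide gaps between the groups. Developmental and muscle regulators were also among the 12. LHX6, a LIM homeobox factor of cortical interneurons, had 4409.6, 4219 and 3772 normalized counts in DMSO and 400.3, 403 and 425 with tazemetostat (log2 change -3.33 ± 0.08 SE, adjusted p = 7.0e-17). LBX1, a homeobox factor of migrating muscle precursors and spinal neurons, went from 622, 633 and 411 to 47.9, 31.9 and 58.4, and ATOH7, a retinal bHLH factor, from 142, 130.3 and 143 to 12.8, 11.6 and 16.0. MYPN (myopalladin), a sarcomere protein, had 4168, 3098 and 4294 normalized counts in DMSO and 341, 352 and 395 with tazemetostat, BTBD11 fell by 3.43 and CNTNAP3, a relative of CNTNAP2, fell by 3.20.

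**Figure D2:**
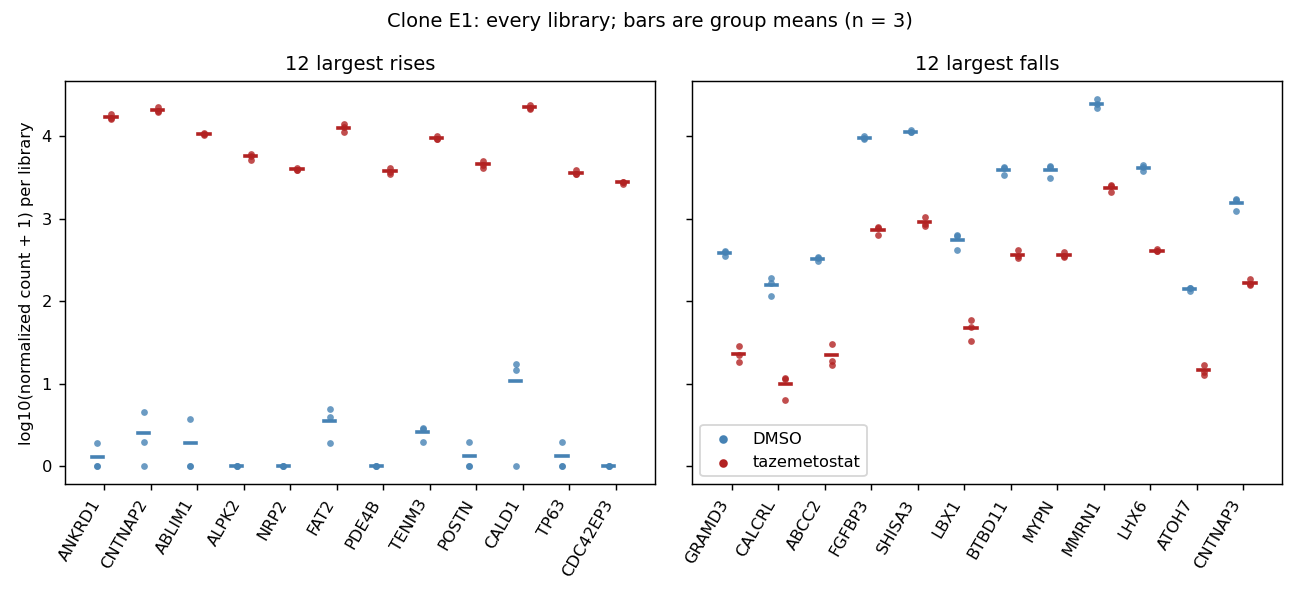
Each library's level, as log10(normalized count + 1), for the 12 genes with the largest rises (left) and falls (right) in clone E1. Points are single libraries, 3 per treatment, and short bars are the position of the group mean; DMSO libraries of the rising genes lie near the bottom, whereas DMSO libraries of the falling genes lie above their treated libraries.

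Among genes already at 1000 normalized counts or more in DMSO, rises reached at most 2.74 on the log2 scale. CLDN11, a tight junction claudin, had 987, 1166 and 949 normalized counts in DMSO and 6900.2, 6718 and 7009 with tazemetostat (log2 change 2.74 ± 0.13 SE, adjusted p = 2.2e-12). CRYAB, a small heat shock protein, had 6107, 5711 and 5955 normalized counts in DMSO and 36637, 35692 and 43756 with tazemetostat (log2 change 2.70 ± 0.10 SE, adjusted p = 2.8e-14). The treated libraries of both were at least 5 times any DMSO library of the same gene. ARHGAP29, a GTPase-activating protein, CTSV, a lysosomal cathepsin, and ANGPT2, the angiopoietin that antagonises TIE2 signalling, rose by 2.58, 2.44 and 2.24.

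Counts of called chromatin regulators were small, where 10.8% of all genes rose and 3.73% fell, and at these list sizes are not read as a trait of the lists. Of 15 PRC2 subunits and H3K27 demethylases listed, 14 were tested and 1 was called: JARID2, which helps recruit PRC2, had 56.3, 37.6 and 41.9 normalized counts in DMSO and 1464, 1459 and 1491 with tazemetostat (log2 change 5.01 ± 0.12 SE, adjusted p = 4.0e-17). Of 25 PRC1 subunits, 2 rose and 1 fell. PCGF5, a ring finger subunit of variant PRC1, had 31.3, 44.4 and 42.9 normalized counts in DMSO and 2531, 2877 and 2835 with tazemetostat (log2 change 6.10 ± 0.13 SE, adjusted p = 1.7e-17), and BMI1, the ring finger subunit of canonical PRC1, had 10645, 10686 and 12872 normalized counts in DMSO and 3879, 4560.0 and 4435 with tazemetostat (log2 change -1.41 ± 0.08 SE, adjusted p = 3.0e-11). The treated libraries of PCGF5 all lay over 50 times its highest DMSO library, and those of BMI1 all lay below the lowest. Of 26 SWI/SNF subunits tested of 28 listed, 2 rose, SMARCA2 (BRM), one of the 2 alternative ATPases, from 0, 2.90 and 2.92 to 228, 212 and 247, and DPF3 by 3.51. The median change of these 3 lists was -0.05, 0.01 and -0.02.

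Few cell-cycle genes were called, where 14.5% of all genes were. None of the 55 G2/M and mitosis genes was called (median 0.01). Of 61 E2F targets and replication genes, 1 fell: E2F2, which went from 927, 782 and 754 to 356, 421 and 325 (log2 change -1.16 ± 0.11 SE, adjusted p = 4.8e-08). That list had a median of -0.16. Without the limit on size, 24 of its members were lower and 5 higher at an adjusted p under 0.05. By that rule 3158 of all 15972 genes were lower and 4266 higher, and in the G2/M list 10 were lower and 8 higher. Among 7 CDK inhibitors, CDKN2B (p15) rose, with 245, 202 and 259 normalized counts in DMSO and 1451, 1472 and 1695 with tazemetostat (log2 change 2.71 ± 0.09 SE, adjusted p = 1.2e-14). The adjacent CDKN2A (p16 and p14ARF) had 1579, 1884 and 1699 normalized counts in DMSO and 3221, 2953 and 3324 with tazemetostat and did not overlap between groups, but its log2 change of 0.88 missed the limit, and CDKN1A (p21) had 10527, 11784 and 8991 normalized counts in DMSO and 10891, 10559 and 10771 with tazemetostat with overlapping groups. CDKN2A and CDKN2B neighbour an antisense transcript, and whether counting used the strand is not given in the sources used here. Of 28 p53 targets tested, 3 rose: FAS, the death receptor, went from 3.57, 13.5 and 8.77 to 1597, 1839 and 1667, PLK2 rose by 4.64 and GADD45A by 1.66. The share, 10.7%, was close to the 10.8% of all genes. In the BCL2 family BMF, a pro-apoptotic BH3-only protein, fell by 1.45, and the other 13 tested were not called.

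Interferon-stimulated genes moved in both directions. Of 55 listed, 45 were tested, 18 rose (40.0%, where 10.8% of all genes did) and 3 fell, with a median of 0.61; 14 of the 18 came from 3 reads or fewer in every DMSO library. IFI16, a sensor of nuclear DNA, had 0, 0.965 and 0 normalized counts in DMSO and 1729, 1955 and 1898 with tazemetostat (log2 change 10.54 ± 0.37 SE, adjusted p = 1.5e-14). IFIH1 (MDA5), a sensor of double-stranded RNA, went from 0, 0.965 and 0 to 287, 327 and 338, and IFIT3, an antiviral effector, from 0.893, 0 and 0 to 361, 383 and 442. GBP1, an interferon-induced GTPase, and SP100, a nuclear body protein, rose by 8.27 and 8.11. The small membrane proteins and IFI6 went the other way. IFITM1, which restricts viral entry, had 1677, 1997 and 1434 normalized counts in DMSO and 484, 506 and 475 with tazemetostat (log2 change -1.79 ± 0.10 SE, adjusted p = 2.4e-11), IFI6 fell by 1.22 and IFITM2 by 1.21. ISG15, a ubiquitin-like modifier, had 729, 1146 and 427 normalized counts in DMSO and 624, 460.4 and 494 with tazemetostat and overlapping groups.

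Most of the tested cytokines and chemokines rose, where 10.8% of all genes rose and 3.73% fell. Of 36 listed, 20 were tested, 14 rose and none fell (median 3.07), and 8 of the 14 came from the floor. A silent gene entered the test only if its treated libraries were high, so the share of tested members that rose is not compared between lists. The neutrophil chemokines CXCL1 and CXCL6 led. CXCL1, with no read in DMSO, reached 1034, 1147 and 1052, and CXCL6 482, 541 and 495. CXCL5 reached 124, 158 and 112, CCL20 108, 115 and 123, and IL8 90.5, 96.7 and 97.0. CCL5, a T-cell chemokine, had 17.9, 19.3 and 9.74 normalized counts in DMSO and 333, 338 and 362 with tazemetostat (log2 change 4.43 ± 0.43 SE, adjusted p = 6.5e-08). TNF went from 18.8, 32.8 and 23.4 to 217, 214 and 218. IL6, an inflammatory cytokine already read in DMSO, had 440.2, 414 and 447 normalized counts in DMSO and 1279, 1276 and 1271 with tazemetostat (log2 change 1.55 ± 0.21 SE, adjusted p = 6.5e-06). In all of these the treated libraries lay above every DMSO library. Of 20 class I antigen presentation genes tested, HLA-B (847, 1034 and 758 normalized counts in DMSO and 3751, 3479.7 and 3646 with tazemetostat), HLA-C and NLRC5, the class I transactivator, rose by 2.05, 1.34 and 1.03. The call of NLRC5 ended without DMSO replicate 2 (0.96) and without tazemetostat replicate 1 (1.000) or 3 (0.98). B2M, the invariant chain of class I, had 11063, 11925 and 12943 normalized counts in DMSO and 17105, 19681 and 19882 with tazemetostat and a change of 0.66, under the limit. Of 11 class II genes tested, 4 rose, 2 of them from the floor. The rises were led by HLA-DQB1 (5.21) and HLA-DRB1 (4.52), neither above 45 normalized counts, and HLA-DMA fell by 1.30. Some HLA genes are similar in sequence and may share reads, which was not tested, so their separate values are uncertain.

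Many matrix genes rose, where 10.8% of all genes rose and 3.73% fell. Of 57 collagens and matrix genes listed, 44 were tested, 28 rose (63.6%) and 2 fell, with a median of 2.23, and 17 of the 28 came from the floor. FN1 (fibronectin), which joins matrix to integrins, had 4.46, 7.72 and 5.84 normalized counts in DMSO and 4762, 4518 and 5410.1 with tazemetostat (log2 change 9.47 ± 0.35 SE, adjusted p = 3.6e-14). MFAP5, a microfibril protein, had no DMSO read and reached 922, 1017 and 946. SPARC, a collagen-binding matricellular protein, had 309.9, 358 and 292 normalized counts in DMSO and 3602, 3744 and 3871 with tazemetostat (log2 change 3.55 ± 0.07 SE, adjusted p = 8.6e-18). The basement membrane collagen COL4A5 rose by 9.27, and its head-to-head neighbour COL4A6 by 6.59. The 2 falls were COL16A1, a minor collagen, by 1.11, and COL3A1 (type III fibrillar collagen), with 32565, 30248 and 30032 normalized counts in DMSO and 7474, 7818 and 8116 with tazemetostat (log2 change -1.99 ± 0.06 SE, adjusted p = 4.6e-15). All treated libraries of COL3A1 lay far below its DMSO libraries, while COL1A1 rose by 1.50 and COL1A2 was at 230.4, 339.8 and 312 normalized counts in DMSO and 379, 457 and 426 with tazemetostat, with an adjusted p of 0.059. Of 28 integrins and laminins tested, 12 rose, 5 of them from the floor, and none fell. ITGA2, a collagen-binding integrin, had 0, 0 and 1.95 normalized counts in DMSO and 3168, 3234 and 3564 with tazemetostat (log2 change 11.18 ± 0.28 SE, adjusted p = 1.7e-16), and LAMB3, a chain of an epithelial laminin, had 7.14, 1.93 and 4.87 normalized counts in DMSO and 8417, 7406 and 7656 with tazemetostat (log2 change 10.56 ± 0.29 SE, adjusted p = 5.1e-16). Both had only a few reads in any DMSO library.

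Contractile and YAP/TEAD lists had no called falls, where 10.8% of all genes rose and 3.73% fell. Of 40 contractile and cytoskeletal genes tested of 48 listed, 16 rose (median 0.67), 4 of them from the floor. ACTA2, smooth muscle actin, had 8.93, 12.5 and 8.77 normalized counts in DMSO and 5492, 5278 and 5631 with tazemetostat (log2 change 8.96 ± 0.32 SE, adjusted p = 2.2e-14). PALLD (palladin), an actin cross-linker, went from 0, 2.90 and 2.92 to 3641, 3984 and 4047. TAGLN (transgelin), an actin-binding protein of smooth muscle, was already high, with 8182, 11349 and 6789 normalized counts in DMSO and 23389, 22345 and 21471 with tazemetostat (log2 change 1.38 ± 0.12 SE, adjusted p = 1.5e-08). Of 28 YAP/TEAD effectors and targets tested, 9 rose (32.1%, median 0.55), 5 of them from the floor. Beside ANKRD1, NT5E (CD73), an ecto-enzyme that makes adenosine, went from 0, 0.965 and 1.95 to 2575, 3427 and 3162, and IGFBP3, an insulin-like growth factor binding protein, from 0.893, 0.965 and 0.974 to 3033, 3370.4 and 3146. The classical targets CYR61 and CTGF changed by 0.77 and 0.55, under the limit, and had 6278, 5898 and 6291 normalized counts in DMSO and 10281, 11348 and 9946 with tazemetostat and 3951, 3108 and 3721 normalized counts in DMSO and 5158, 5487 and 5119 with tazemetostat. TEAD1, a DNA-binding partner of YAP1, changed by 0.93, and YAP1 by 0.30, both below the limit.

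**Figure D3:**
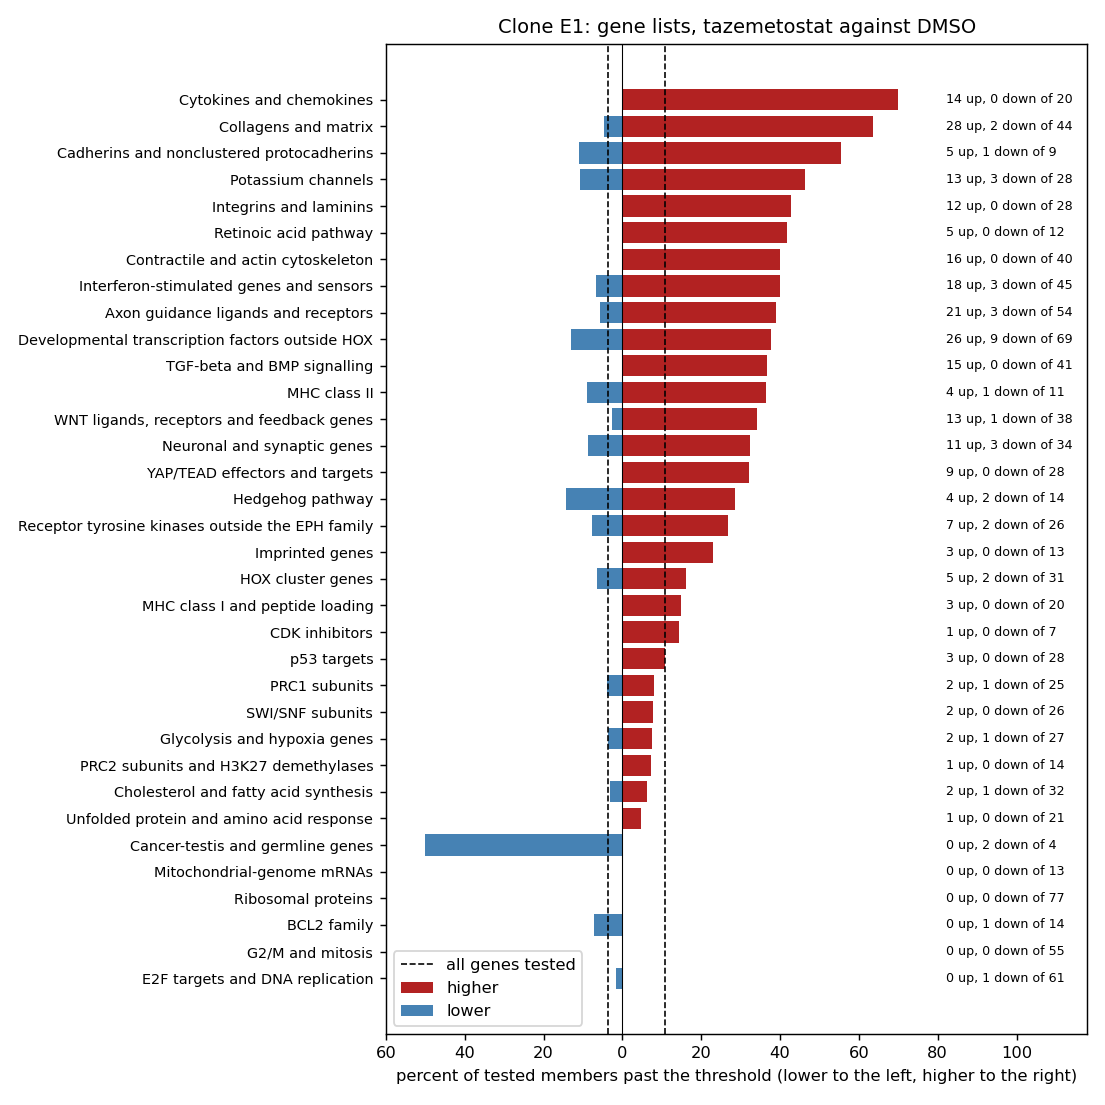
Percent of the tested members of 34 gene lists that rose (red, to the right) or fell (blue, to the left) in clone E1, with counts at the right; dashed lines mark 10.8% and 3.73%, the shares over all 15972 tested genes. The bar for cytokines stands on 14 of 20 tested members and that for matrix genes on 28 of 44, and ribosomal, mitochondrial and G2/M genes have no calls. Lists are drawn in order of the share that rose. Silent genes entered the test only through their treated libraries (8 of the 14 and 17 of the 28 came from the floor), so this order does not rank the lists.

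Axon guidance and neuronal genes moved in both directions. Rises outnumbered falls, as they did over all genes (10.8% and 3.73%). Of 54 guidance genes tested of 69 listed, 21 rose, 8 of them from the floor, and 3 fell (median 0.41). SLIT3, a repellent ligand, went from 0, 0.965 and 0 to 631, 639 and 649. ROBO1, a SLIT receptor, had 169, 112 and 169 normalized counts in DMSO and 5539.5, 5893 and 6275 with tazemetostat (log2 change 5.31 ± 0.12 SE, adjusted p = 2.7e-17), and NTN1 (netrin 1), a ligand of DCC and UNC5 receptors, had 17.9, 29.0 and 12.7 normalized counts in DMSO and 2038, 1756 and 1898 with tazemetostat (log2 change 6.58 ± 0.20 SE, adjusted p = 1.9e-15). SEMA4G, a transmembrane semaphorin, fell, with 5828, 4989.9 and 4856 normalized counts in DMSO and 1165, 1016 and 1124 with tazemetostat (log2 change -2.24 ± 0.07 SE, adjusted p = 6.9e-15), its treated libraries lying below all DMSO libraries. Of 77 neuronal and synaptic genes listed, 34 were tested, 11 rose, 5 of them from the floor, and 3 fell (median 0.34). NCAM1, a neural adhesion molecule, had no DMSO read and reached 283, 317 and 313. MAP2, a dendritic microtubule protein, had 1.79, 0.965 and 25.3 normalized counts in DMSO and 1091, 973 and 1069 with tazemetostat, so that 1 DMSO library stood above the other two. Of 28 potassium channels tested of 62 listed, 13 rose, 7 of them from the floor, and 3 fell. KCNMA1, the large-conductance calcium-activated channel, went from no read to 1263, 1307 and 1325, while KCNT2 and KCNN1 fell by 1.40 and 1.57.

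Developmental transcription factors moved in both directions. Outside the HOX clusters, 155 were listed and 69 tested. Of these, 26 rose (37.7%) and 9 fell (13.0%), where 10.8% of all genes rose and 3.73% fell. The median was 0.37, and 11 rises came from the floor. GATA6, an endoderm and heart factor, had 0, 0.965 and 0 normalized counts in DMSO and 221, 226 and 218 with tazemetostat (log2 change 7.47 ± 0.24 SE, adjusted p = 4.7e-15). RUNX1, a blood factor, RUNX2, a bone factor, and PAX8, a kidney and thyroid factor, reached 178, 189.6 and 213, 296, 237 and 248 and 147, 113 and 145. DMSO libraries of these 3 genes held from 0 to 3.90 normalized counts. Falls included forebrain factors: besides LHX6, DLX1 had 2438, 2387 and 2303 normalized counts in DMSO and 413, 392 and 449 with tazemetostat (log2 change -2.51 ± 0.06 SE, adjusted p = 5.2e-17), DLX2 fell by 1.47 and OTX2, a head organiser factor, had 5111, 5447 and 5492 normalized counts in DMSO and 1382, 1523 and 1489.6 with tazemetostat (log2 change -1.87 ± 0.06 SE, adjusted p = 5.1e-15). In each of these genes every treated library lay below every DMSO library. POU4F1, a sensory neuron factor, rose by 3.59 and EN2 by 1.98. Of 31 HOX genes tested of 39, 5 rose and 2 fell. HOXD13 had no DMSO read and reached 68.1, 89.9 and 86.7, HOXD8 had 16.97, 22.2 and 27.3 normalized counts in DMSO and 319, 343 and 291 with tazemetostat and HOXD9 had 11.6, 18.3 and 8.77 normalized counts in DMSO and 128, 114 and 117 with tazemetostat. At the posterior end of other clusters, HOXB13 had 4939, 6071 and 3995 normalized counts in DMSO and 1717, 1574 and 1552 with tazemetostat (log2 change -1.61 ± 0.11 SE, adjusted p = 2.3e-10) and HOXC11 fell by 1.71, whereas HOXA13 rose by 1.63.

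Some ligands, receptors and inhibitors of signalling pathways changed, where 10.8% of all genes rose and 3.73% fell. In TGF-beta and BMP signalling, 41 of 56 listed genes were tested, 15 rose, 5 of them from the floor, and none fell (median 0.41). Among ligands BMP7 had 12.5, 5.79 and 16.6 normalized counts in DMSO and 780.4, 783 and 816 with tazemetostat (log2 change 6.08 ± 0.25 SE, adjusted p = 1.7e-13). Among transducers SMAD1, which carries BMP signals, went from 0, 1.93 and 0 to 669.7, 671 and 693. ID4, a target that blocks bHLH factors, rose by 7.13. LTBP1, which stores latent TGF-beta in the matrix, had 153, 172 and 174 normalized counts in DMSO and 2039.9, 2179.9 and 2256 with tazemetostat (log2 change 3.69 ± 0.07 SE, adjusted p = 6.3e-18). All of these rises left a gap between the lowest treated and the highest DMSO library. In WNT signalling, 38 of 59 were tested, 13 rose, 1 of them from the floor, and 1 fell (median 0.32). The secreted inhibitor DKK1 had 4.46, 0.965 and 4.87 normalized counts in DMSO and 2557, 2748 and 2600.4 with tazemetostat (log2 change 9.37 ± 0.38 SE, adjusted p = 1.4e-13). RNF43, which removes WNT receptors from the surface, rose by 4.45. The ligand WNT11 fell, with 1122, 1209.6 and 973 normalized counts in DMSO and 270.4, 284 and 274 with tazemetostat (log2 change -1.99 ± 0.10 SE, adjusted p = 3.4e-12), and its 3 treated libraries were the lowest of the 6.

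Among receptor tyrosine kinases outside the EPH family, 26 of 40 were tested, 7 rose, 4 of them from the floor, and 2 fell (median 0.09). Over all genes tested, 10.8% rose and 3.73% fell. MET, the receptor for hepatocyte growth factor, had 0, 0 and 1.95 normalized counts in DMSO and 1105, 1290.1 and 1301 with tazemetostat (log2 change 9.74 ± 0.35 SE, adjusted p = 2.0e-14). EGFR, already expressed, had 3032, 2453 and 2938 normalized counts in DMSO and 6149, 6155 and 6569.9 with tazemetostat (log2 change 1.17 ± 0.07 SE, adjusted p = 1.3e-10). Both MET and EGFR were higher in all 3 treated libraries, from very different starting levels. The platelet-derived growth factor receptors fell: PDGFRB had 5423, 4563 and 4235 normalized counts in DMSO and 1251, 1093 and 1203 with tazemetostat (log2 change -2.00 ± 0.08 SE, adjusted p = 4.4e-14) and PDGFRA fell by 1.18. In the Hedgehog pathway, 4 of 14 tested rose, 3 of them from the floor, and 2 fell. The falls included GPC3, a cell-surface glypican with 7279, 7164 and 7586 normalized counts in DMSO and 2185, 2261 and 2298 with tazemetostat (log2 change -1.71 ± 0.09 SE, adjusted p = 8.9e-12). In the retinoic acid pathway, 5 of 12 tested rose. ALDH1A1, which makes retinoic acid, had no DMSO read and reached 353, 419.7 and 406. RDH10, which makes retinal, had 556, 517 and 625 normalized counts in DMSO and 3474, 4608 and 4411 with tazemetostat (log2 change 2.87 ± 0.09 SE, adjusted p = 6.3e-15). Of 13 imprinted genes tested, IGF2, a fetal growth factor, had 14.3, 10.6 and 14.6 normalized counts in DMSO and 6185, 5205 and 6162 with tazemetostat (log2 change 8.70 ± 0.18 SE, adjusted p = 1.2e-17), and ZDBF2 and PHLDA2 rose by 4.33 and 2.32.

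Ribosomal and mitochondrial lists had no calls, where 10.8% of all genes rose and 3.73% fell. None of 77 ribosomal protein genes was called (median -0.15), nor any of 13 mitochondrial-genome mRNAs (median 0.33). Without the limit on size, 15 ribosomal genes were lower and 1 higher, and 7 mitochondrial mRNAs were higher and 0 lower. By that rule 3158 of all 15972 genes were lower and 4266 higher. Of 32 cholesterol and fatty acid synthesis genes, 2 rose and 1 fell. Of 27 glycolysis and hypoxia genes, 2 rose and 1 fell, shares of 7.41% and 3.70% that lie near those of all genes, and NDRG1, a hypoxia-induced protein, came from no DMSO read to 60.7, 59.0 and 40.5. In the unfolded protein and amino acid response, ATF3, a stress factor, rose by 2.93 and the other 20 were not called. Of 38 cancer-testis and germline genes listed, 4 were tested, and PRAME and TEX15 fell by 3.08 and 1.05. The call of TEX15 ended without DMSO replicate 1 (-0.99) or 3 (-0.97) and without tazemetostat replicate 2 (-0.98).

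Markers of other cell types were also read. The summed level of 12 epithelial markers was 56819 to 85267 normalized counts in DMSO and 152399 to 159204 with tazemetostat, almost wholly from KRT8 (42717, 52006 and 30200.2 normalized counts in DMSO and 92247, 84753 and 84696 with tazemetostat) and KRT18 (31202, 33138 and 26525 normalized counts in DMSO and 66110.3, 69302 and 66850.2 with tazemetostat). Of 6 epithelial markers tested, 5 rose, where 10.8% of all genes did. KRT5, a basal keratin, went from no DMSO read to 509, 481 and 534, and CDH1 (E-cadherin) had 8.04, 14.5 and 25.3 normalized counts in DMSO and 146, 159.6 and 114 with tazemetostat. EPCAM was at 8.04 to 9.74 normalized counts in DMSO and 0.942 to 4.84 with tazemetostat and was not tested. Blood markers summed to 46.4 to 48.3 in DMSO and 175 to 209 when treated, with LAPTM5 the larger part, and PTPRC (CD45) had 0 reads in all 6 libraries. Endothelial markers summed to 12.7 to 17.9 and then 48.4 to 62.8. Neural crest and glial markers summed to 4.87 to 12.5 and then 270.4 to 300.2, where SOX10 had at most 2.13. Whether these transcripts came from the same cells was not tested.

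The same fit asked whether the response of E1, the log2 change with treatment, differed from that of the other lines. Against WT, the response was higher for 768 genes (4.81%) and lower for 743 (4.65%). Against F2, 285 were higher (1.78%) and 565 lower (3.54%). Of the 1727 genes that rose in E1, 70.1% passed in neither direction against WT and 72.3% against F2, and the median changes of these genes in WT and F2 were 3.99 and 4.26. Of the 596 that fell, 144 had a lower and 15 a higher response than in WT, with a median change of -0.93 in WT, and 66 and 12 against F2, with a median of -1.13 there. Genes were chosen here by their change in E1, so the E1 value of such a set is not set against the others, and both differences share the E1 libraries.

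Among the 151 named genes that could be tested, 65 differed in response from WT, 48 from F2, and 28 from both in the same direction. Of these 28, 12 had a higher and 16 a lower response in E1. A response is the treated minus the DMSO level, so genes chosen by their response are also chosen in part by their DMSO level, and the levels below are a description. Among the higher responses, LTBP1 went from a mean of 166 to 2158 in E1, from 1983 to 1759 in WT and from 5999.7 to 2420.4 in F2. Its treated means thus differed less between the lines than its DMSO means. JARID2 went from 45.3 to 1471 in E1, from 102 to 1436 in WT and from 218 to 1495 in F2. PCDH9, a protocadherin, went from 8.72 to 705 in E1, from 113 to 792 in WT and from 151 to 472 in F2. The other 9 were CDH1, GATA6, ERBB4, a neuregulin receptor, NRP1, RDH10, HOXD8, HOXD9, CXCL1, which had no DMSO read in E1 or F2, and ST18, a zinc finger factor that fell in E1 less than in the other lines. Leaving out single E1 libraries ended the call of the difference from WT for HOXD8 (0.94 without DMSO replicate 1) and ST18 (1.06 to 1.17 without DMSO replicate 1 or 2 or tazemetostat replicate 2 or 3). The difference of CXCL1 from F2 lost its call without any single E1 library but DMSO replicate 3 (1.51 to 1.58).

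The 16 lower responses included CLDN11. It went from 1034 to 6876 in E1, but from 65.4 to 8216 in WT and from 21.5 to 4550.1 in F2 (response difference -4.24 from WT and -4.93 from F2). ARHGAP29 had DMSO means of 1012, 68.5 and 6.14 in E1, WT and F2 and treated means of 6051, 5129 and 1761. Without DMSO replicate 2 the differences of PLK2 and SPARC from WT were -0.96 and -0.95 and no longer called. GRAMD3 fell most in E1, where its DMSO mean was 384 against 34.0 in WT and 22.3 in F2, and its treated means were 22.0, 14.3 and 11.3. FN1 had treated means of 4897 in E1, 10426 in WT and 13386 in F2, and DMSO means of 6.01, 3.44 and 2.58. On the log2 scale those few DMSO counts also enter its response difference. IFITM1 had similar DMSO means, 1703, 1657 and 1359, and treated means of 488, 1512 and 887. EZH2 differed from WT alone: its change was -0.08 in E1 and -0.27 in F2 but -1.50 in WT (E1 minus WT 1.42 ± 0.10 SE, adjusted p = 5.3e-09).

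**Figure D4:**
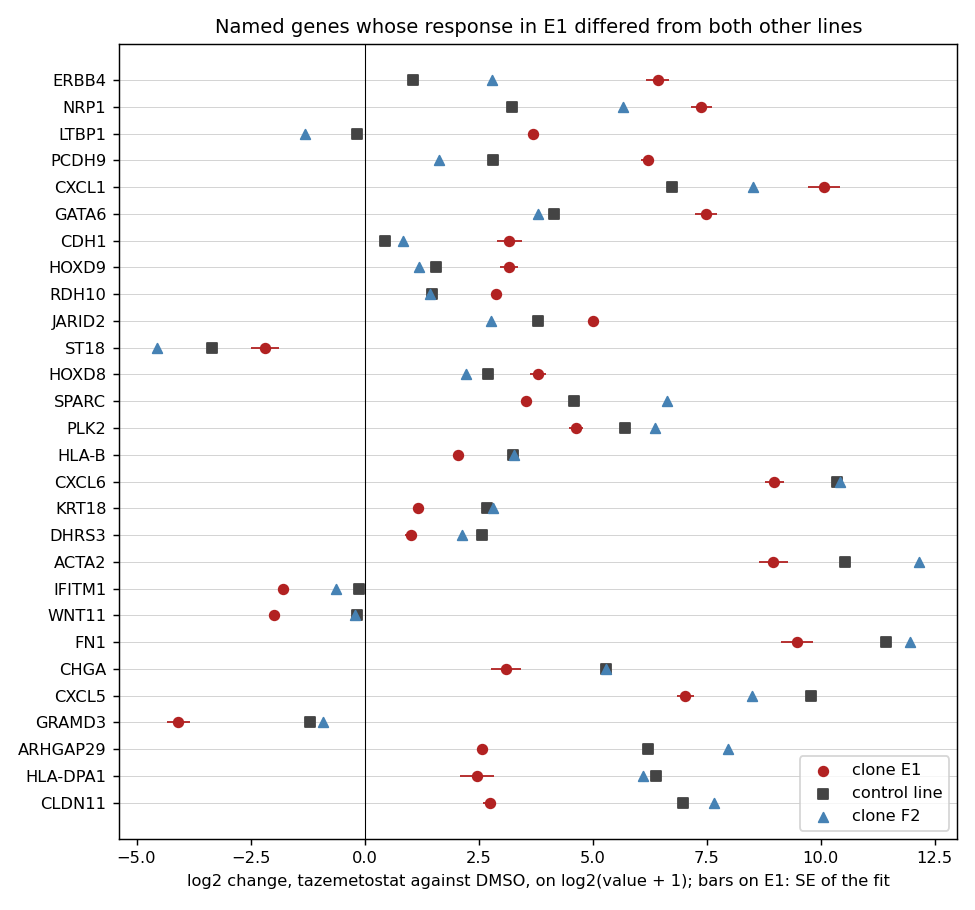
Log2 change with tazemetostat on log2(value + 1) in clone E1 (red circles, with the SE of the fit), the WT control line (squares) and clone F2 (triangles) for the 28 named genes whose response in E1 differed from both in the same direction. The upper 12 genes have E1 to the right of both other lines and the lower 16 have it to the left.

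For several large rises the test found no difference between lines. ANKRD1 changed by 13.75, 13.26 and 14.43 in E1, WT and F2, and CNTNAP2 by 13.28, 12.69 and 13.18. Their response differences from WT were 0.49 ± 0.64 and 0.58 ± 0.83 (SE), so that a difference of 1 lies within 1 SE of each. Several falls did differ from WT. LHX6 changed by -3.33 in E1 and -2.96 in F2 but by -0.69 in WT (E1 minus WT -2.64 ± 0.11 SE, adjusted p = 1.7e-11). MYPN followed with -3.39, -2.67 and -0.76, and SHISA3 with -3.65, -3.84 and -1.58. For these 3 falls the difference between E1 and F2 did not pass the call rule.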

How the data were processed

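RNA of the 6 E1 libraries (TruSeq stranded mRNA, poly(A) selected, paired-end) was analysed within the whole deposited table. The values the authors deposited are a signal: reads counted per gene, scaled by each library's own size factor. The submitters' processing notes name Trim Galore 0.4.4, STAR 2.6.0a, HTSeq, DESeq2 and hg19, with the annotation and strand setting not given in the sources used here. Divided by the smallest non-zero value of its library, 100% of values came out within 0.001 of a whole read, which gave the depths. Floors of 3 reads cover counting error only, since no molecular identifiers were used.

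limma 3.58.1 in R 4.3.3 (lmFit, eBayes with trend) was fitted to log2(value + 1) of all 18 libraries as 6 group means, for genes with a mean of at least 10 over the 6 E1 libraries, as described in the results. Changes on this scale understate those of low genes. p-values were Benjamini-Hochberg adjusted over 15972 genes per contrast. The count tests on recovered reads (edgeR 4.0.16 quasi-likelihood and DESeq2 1.42.0) called 1735 and 1724 genes higher and 623 and 603 lower. The fit was tested on simulated data.

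Named genes were RB1, EZH2, CDKN2A and SMARCB1, the 12 largest rises and falls, the 6 largest of each with a DMSO mean of at least 1000, and up to 4 of each per list among genes with a mean of at least 50; other list members named were chosen after their values were seen. The members and the 39 lists were chosen with earlier results of these data known. The 26 tested genes of the Y chromosome were fitted and are not named, and a few other genes are not reported here. Promoters are from RefSeq, taking the first start listed. Alternatives were other filters, pseudocounts, scalings, tools, fits and replicates left out.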

Additional observations from a re-analysis of the deposited data

Results flagged for a closer look

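The response to tazemetostat was compared between E1 and each other line as an interaction in the same fit, and named genes past the call rule are given here as E1 minus the other line on the log2 scale. The lists are not complete: they hold the genes described in the results and those that differed from both lines, and the other named genes enter only the counts given there. Both sets of differences use the same E1 libraries. Against WT, the 27 listed as higher in E1 were 5.36 for ERBB4, 4.14 for NRP1, 3.87 for LTBP1, 3.41 for PCDH9, 3.34 for CXCL1, 3.32 for GATA6, 2.97 for IGFBP3, 2.73 for CDH1, 2.56 for BMP7, 2.53 for NT5E, 2.13 for KCNT2, 1.98 for ALPK2, 1.80 for ABLIM1, 1.71 for PDE4B, 1.68 for CALCRL, 1.63 for PAX8, 1.61 for HOXD9, 1.42 for EZH2, 1.41 for RNF43, 1.38 for RDH10, 1.34 for NRP2, 1.21 for JARID2, 1.21 for IGF2, 1.17 for E2F2, 1.17 for ST18, 1.11 for NCAM1 and 1.11 for HOXD8. The 30 listed as lower in E1 than in WT were -4.24 for CLDN11, -3.93 for HLA-DPA1, -3.63 for ARHGAP29, -2.88 for GRAMD3, -2.76 for CXCL5, -2.64 for MYPN, -2.64 for LHX6, -2.25 for ALDH1A1, -2.18 for CHGA, -2.06 for SHISA3, -1.99 for IFI6, -1.95 for FN1, -1.81 for WNT11, -1.68 for PDGFRB, -1.65 for IFITM1, -1.57 for ATOH7, -1.57 for ACTA2, -1.55 for DHRS3, -1.54 for CNTNAP3, -1.52 for KRT18, -1.48 for GBP1, -1.47 for BTBD11, -1.44 for HOXB13, -1.37 for CXCL6, -1.26 for LBX1, -1.20 for HLA-B, -1.08 for PLK2, -1.04 for SPARC, -1.03 for MMRN1 and -1.03 for SEMA4G. Against F2, the 15 listed as higher in E1 were 5.00 for LTBP1, 4.57 for PCDH9, 3.67 for GATA6, 3.63 for ERBB4, 2.37 for ST18, 2.32 for CDH1, 2.24 for JARID2, 2.00 for ITGA2, 1.98 for HOXD9, 1.71 for NRP1, 1.68 for ID4, 1.57 for HOXD8, 1.55 for CXCL1, 1.43 for RDH10 and 1.18 for KCNMA1. The 25 listed as lower in E1 than in F2 were -5.37 for ARHGAP29, -4.93 for CLDN11, -3.64 for HLA-DPA1, -3.20 for ACTA2, -3.17 for GRAMD3, -3.09 for SPARC, -2.76 for CRYAB, -2.48 for FN1, -2.35 for KRT5, -2.18 for CHGA, -1.84 for LAPTM5, -1.77 for WNT11, -1.74 for PLK2, -1.68 for FAS, -1.65 for KRT18, -1.46 for CXCL5, -1.44 for CXCL6, -1.26 for RUNX1, -1.25 for POSTN, -1.23 for IFITM2, -1.22 for HLA-B, -1.17 for IFITM1, -1.13 for DHRS3, -1.12 for IGF2 and -1.10 for BMP7. For genes with no or hardly any DMSO reads, such as CXCL5, CXCL6, NRP2, PDE4B and ALPK2, the difference rests on the treated level and on the value added before taking logs.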

How the results depend on the processing

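The count of genes that rose moved from 1727 to 3029 with a filter at a mean of 1, 3255 with no filter, 1064 with a filter at 50 and 4266 without the limit on size. The count that fell moved from 596 to 902, 391 and 3158 with no filter, the filter at 50 and no limit on size. These settings change how many genes are tested or the size a call needs. For E1 minus WT, the filter at 50 gave 491 lower, and no limit on size gave 2761 higher and 2839 lower. The filter at 1 gave 910 higher and 986 lower, and no filter 901 and 1095, against 768 and 743, so which direction held more genes depended on the filter. For E1 minus F2, higher counts were 167 by DESeq2, 186 by edgeR, 177 with the filter at 50 and 984 without the limit, against 285, and lower counts were 373 and 1298 with the last 2 settings, against 565. The number of named genes differing from F2 was 80 without the limit, against 48. With every library scaled to the same total, 1665 rose and 667 fell.

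Leaving out each E1 library in turn gave 1704 to 1748 rises and 569 to 620 falls. For the other counts the ranges were 731 to 844 higher and 676 to 952 lower against WT, 252 to 314 higher and 493 to 650 lower against F2, and 62 to 72 and 42 to 52 named genes.

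Replicate numbers are shared between the groups, but deviations of same-numbered libraries correlated at 0.204, -0.003 and 0.059, not all above 0.1, and treated library 2 correlated best with DMSO library 3 (0.184), so the numbers were not taken as pairs. With the replicate number as a block, 1726 genes rose and 593 fell over all 18 libraries, and 1737 and 602 over the 6 E1 libraries. The block over 18 libraries ended 3 calls of named genes, the differences of ALPK2 from WT and of POSTN and RUNX1 from F2.

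The change of EZH2 ranged from -0.135 to 0.0055 when single libraries were left out, and changed sign without DMSO replicate 3 (adjusted p = 0.95), and CXCL6 in E1 minus WT turned to 0.11 in edgeR (adjusted p = 0.61), as did ITGA2 in E1 minus F2 to -0.11 (adjusted p = 0.70). Single libraries left out ended these calls of E1 changes among the genes reported: ALDOC without DMSO 1 (-0.96), DMSO 2 (-0.93) or tazemetostat 1 (-0.91), DHRS3 without DMSO 3 (0.86), EFNA2 without DMSO 2 (-0.95), NLRC5 without DMSO 2 (0.96), tazemetostat 1 (1.000) or tazemetostat 3 (0.98), SEMA3E without DMSO 1 (-0.99) or DMSO 3 (-0.96), SHANK1 without DMSO 1 (-0.96), tazemetostat 2 (-0.94) or tazemetostat 3 (-0.99) and TEX15 without DMSO 1 (-0.99), DMSO 3 (-0.97) or tazemetostat 2 (-0.98). For differences from WT they ended ALPK2 without DMSO 1 (1.98), DMSO 2 (1.98), tazemetostat 1 (1.93), tazemetostat 2 (2.04) or tazemetostat 3 (1.97), HOXD8 without DMSO 1 (0.94), MMRN1 without DMSO 3 (-0.94) or tazemetostat 1 (-0.95), PLK2 without DMSO 2 (-0.96), SEMA4G without DMSO 1 (-0.95) or tazemetostat 2 (-0.97), SPARC without DMSO 2 (-0.95) and ST18 without DMSO 1 (1.16), DMSO 2 (1.10), tazemetostat 2 (1.06) or tazemetostat 3 (1.17). For differences from F2 they ended BMP7 without DMSO 1 (-1.002), DMSO 3 (-0.81), tazemetostat 1 (-1.09), tazemetostat 2 (-1.10) or tazemetostat 3 (-1.12), CXCL1 without DMSO 1 (1.55), DMSO 2 (1.55), tazemetostat 1 (1.58), tazemetostat 2 (1.51) or tazemetostat 3 (1.57), FAS without DMSO 2 (-1.31), DMSO 3 (-1.59), tazemetostat 1 (-1.63), tazemetostat 2 (-1.74) or tazemetostat 3 (-1.67), ID4 without DMSO 2 (1.50), tazemetostat 1 (1.65), tazemetostat 2 (1.74) or tazemetostat 3 (1.65), POSTN without DMSO 3 (-0.92), tazemetostat 1 (-1.18), tazemetostat 2 (-1.25) or tazemetostat 3 (-1.33) and RUNX1 without DMSO 3 (-0.93), tazemetostat 1 (-1.20), tazemetostat 2 (-1.24) or tazemetostat 3 (-1.33). Values in brackets are the log2 changes without that library. Differences from WT for ALDH1A1, CXCL5, GBP1, NCAM1, NRP2, PAX8 and PDE4B and from F2 for CXCL1, CXCL5, CXCL6, KCNMA1, KRT5, POSTN and RUNX1 were called by neither edgeR nor DESeq2, and the cause was not tested. With 5 added before taking logs, the differences of ABLIM1, ACTA2, ALPK2, GBP1, HOXD8 and NRP2 from WT and of BMP7, FAS, KCNMA1 and NRP1 from F2 were no longer called. Values of a few reads limit the separation of silent genes at this depth.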
